A study of Mus musculus with 6 samples.

Results

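Naive CD8 T cells are cytotoxic-lineage T cells that have left the thymus and have not yet met their antigen. They carry the CD8 coreceptor, whose alpha and beta chains are encoded by Cd8a and Cd8b1 and which binds MHC class I beside the T cell receptor. They recirculate between blood and lymph nodes, entering nodes with the chemokine receptor Ccr7 and leaving with the sphingosine 1-phosphate receptor S1pr1, and they are kept quiescent by transcription factors such as Klf2, Tcf7 and Lef1.

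The cells described here are those that the authors' deposited cell table annotated as CD8+ Naive T. They came from lymph nodes of 7 pregnant mice, read by droplet-based single-cell RNA sequencing, in which each captured transcript carries a unique molecular identifier (UMI). The matrix listed 9427 cells, 2504 of them in this class. Well 1 of pool LN stood in it a second time: 2127 rows, 586 of them CD8+ Naive T, repeated the barcode letters, the counts and the annotation of another row. Each of these cells was counted once, which left 7300 cells in all and 1918 naive CD8 T cells, and values with the rows as deposited are given below for the named genes whose call they changed. A further 419 cells, 99 of the class, carried a barcode that also occurred in another well, with other counts.

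The study compared Aire-DTR with WT dams. Aire is a transcription factor through which medullary thymic epithelium, and some antigen-presenting cells of lymph nodes, display tissue antigens. The Aire-DTR transgene places a diphtheria toxin receptor in Aire-expressing cells, so that injected toxin kills them wherever they lie. Aire itself had 1 UMI in naive CD8 T cells and 8 UMIs in all cells, too few to check the removal. All dams of both genotypes were pregnant by BALB/c males, received toxin over the first 9 days, and gave uterine-draining (udLN) and brachial (brLN) lymph nodes at embryonic day 9.5. The Aire-DTR mice were 8 (pool 1), 36 (pool 2), 4 and 7 (both pool LN), and the WT mice were 6 (pool 1), 97 (pool 2) and 1 (pool LN). The cell table gives the pregnancy phenotype of mice 8, 36 and 7 as IUGR and that of mouse 4 as resorbed. Mice of 1 pool were loaded together, tagged by hashtag antibodies, and each pool was split over 2 wells.

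Per mouse and node, the class held 14 to 267 cells and 47957 to 955653 UMIs. The median cell had 3447 UMIs and 1290 genes, and 14 cells had fewer than 1000 UMIs. The smallest sum, the udLN of WT mouse 97, had 14 cells and was left out of gene tests, which needed at least 20 cells. Gene comparisons in udLN therefore set 4 Aire-DTR against 2 WT mice, and mouse 36, alone in its pool there, added nothing to the difference within pools. The median cell of a sum had 3306 to 3585 UMIs in Aire-DTR brLN, against 3281 to 4397 in WT brLN; in udLN it had 3103 to 3796 UMIs in Aire-DTR, against 3224 to 4492 in WT mice. Globin transcripts differed between pools: the 5 red cell genes on the marker list summed to 699 to 1242 counts per 1000000 UMIs (CPM) in pool 1 and 500 to 994 CPM in pool 2, against 3.02 to 21.1 CPM in pool LN.

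The annotation matched the markers of the class. Of the 1918 cells, 1903 had at least 1 UMI of Cd8a or Cd8b1, and 15 had a UMI of Cd4. Summed over cells, Cd8a stood at 749 CPM in naive CD8 T cells, 513 CPM in CD8+ Mem T cells and 7.94 CPM in CD4+ Naive T cells. Cd8b1 stood at 1915, 1357 and 53.2 CPM in the same order of classes. Cd8a UMIs were found in 87.2% of naive CD8 T cells and in 2.96% of B cells, whose median depths were 3447 and 2261 UMIs. Ccr7 was at 494 CPM in naive CD8 T cells, against 262 CPM in CD8+ Mem T and 617 CPM in CD4+ Naive T cells, and Dapl1, a small protein that marks naive T cells, was at 420 CPM against 192 and 265 CPM. All 4 markers were thus present, and both coreceptor chains and Dapl1 were higher than in either neighbouring class, while Ccr7 was lower than in naive CD4 T cells. These levels helped to define the class, so they are given as a description with no test.

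Few genes set the class apart from both of its nearest neighbours. Among 1315 genes at 100 CPM or more in one of the 3 classes, 5 were over 1.5-fold higher in naive CD8 T cells than in both CD8+ Mem T and CD4+ Naive T cells, and 7 were over 1.5-fold lower than in both. The gene with the highest ratio was Rgcc, a regulator of the cell cycle, at 260 CPM in naive CD8 T cells, 33.0 CPM in CD8+ Mem T cells and 110 CPM in CD4+ Naive T cells. Tagln2, an actin-binding protein, was at 628, 397 and 332 CPM in the same order of classes, and Smap2 at 134, 87.1 and 64.5 CPM. Dapl1, given above, was the fourth. The fifth, Tgtp2, a T cell GTPase induced by interferon, was at 150, 63.2 and 86.9 CPM, but it shares stretches of up to 1040 identical bases with Tgtp1, so the split between the pair is uncertain. Acp5, the tartrate-resistant acid phosphatase best known from osteoclasts, lay just short of 1.5-fold at 344, 221 and 232 CPM.

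The 7 lower genes were Klra4, Itm2a, Gzmm, Gpr183, S100a6, Cd28 and Cd40lg. Cd28, the main costimulatory receptor, was at 69.1 CPM in naive CD8 T cells, 127 CPM in CD8+ Mem T cells and 209 CPM in CD4+ Naive T cells. Cd5, an inhibitory receptor set by self-reactivity, was at 104, 142 and 281 CPM in that order, over 1.5-fold lower than in CD4+ Naive T cells but not than in CD8+ Mem T cells. Itm2a, a membrane protein induced in thymocyte selection, was at 20.4, 131 and 113 CPM, and Gpr183, the oxysterol receptor that positions lymphocytes in the node, at 55.2, 135 and 138 CPM. S100a6 was at 3.72 CPM in naive CD8 T cells and 171 CPM in CD8+ Mem T cells, and the granzyme gene Gzmm was at 0.149 CPM against 113 CPM. Other cytotoxic genes were well detected: Nkg7, a protein of cytotoxic granules, was at 827 CPM in naive CD8 T cells, 1369 CPM in CD8+ Mem T cells and 9.33 CPM in CD4+ Naive T cells, and the cathepsin Ctsw at 356, 590 and 74.0 CPM. Ly6c2, high on memory CD8 T cells, was intermediate at 421 CPM in naive CD8 T cells, against 2297 CPM in CD8+ Mem T and 5.95 CPM in CD4+ Naive T cells. Its near-identical neighbour Ly6c1 was at 2.38, 1.71 and 225 CPM, and since the transcripts share up to 188 identical bases both levels are uncertain.

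**Figure D1:**
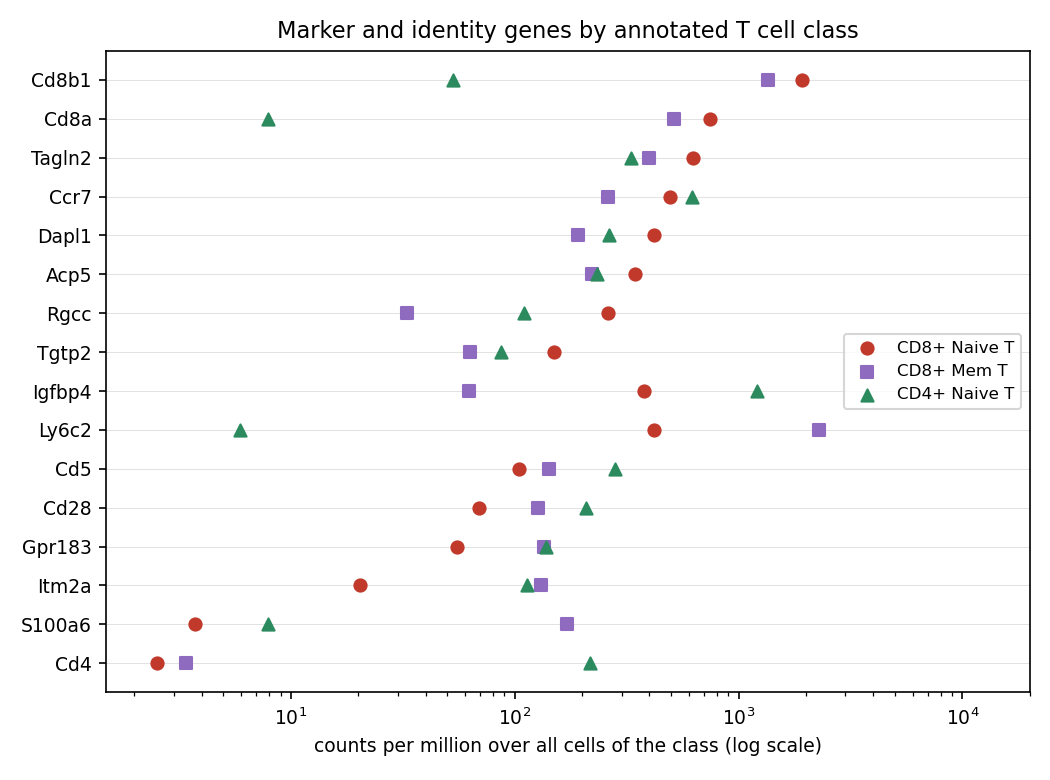
Level of 16 marker and identity genes in CD8+ Naive T, CD8+ Mem T and CD4+ Naive T cells, in CPM summed over all cells of each class (log axis). Cd8b1 and Cd8a separate both CD8 classes from CD4+ Naive T cells, and Rgcc, at 260 CPM in naive CD8 T cells, separates them from both neighbours.

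Of the 1918 cells, 48 had a UMI of the B cell gene Cd79a, 63 of the memory and NK chemokine Ccl5, 8 of Foxp3 and 6 of the gamma-delta gene Trdc. The 16 B cell markers summed to 403 CPM in the class and 66499 CPM in B cells, and the 10 NK markers to 53.5 CPM against 19289 CPM in NK cells. The 31 genes of the virtual memory list, which holds Nkg7, Ctsw and Klrd1 as well as Cd44, Cxcr3 and Eomes, summed to 2221 CPM in the class, 9717 CPM in CD8+ Mem T cells and 457 CPM in CD4+ Naive T cells, and 4 of them were at 0 in the class. Hbb-bs, adult beta-globin, had a UMI in 603 cells. In pool 1 the share of cells with such a UMI was 84.4% in naive CD8 T cells and 82.1% in B cells, in pool 2 it was 74.5% and 71.3%, and in pool LN 1.38% and 1.11%. The share of cells with a globin UMI was thus close to that of B cells in each pool. Per UMI the level was lower in naive CD8 T than in B cells: 734 against 1377 CPM in pool 1, 639 against 1072 CPM in pool 2. In pool LN it was 4.84 against 5.05 CPM. The source of these UMIs was not tested.

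To see how the cells varied among themselves, each cell was thinned to 1500 UMIs, which kept 1878 cells and left out 40 (16 and 14 cells of Aire-DTR and WT brLN, 5 and 5 cells of Aire-DTR and WT udLN). If transcripts were sampled at 1 rate in every cell, the variance of the UMIs would equal their mean. The median ratio of variance to mean over 3511 genes was 1.02, and 24 genes exceeded 1.5. The ratio was highest for Hbb-bs at 22.8, Lars2 at 14.0, Cd74 at 6.66 and Gm20594 at 6.07. Globin and Cd74, the invariant chain of MHC class II, are products of other cell types, and their ratios rested on pools 1 and 2: in pool LN alone they were 0.98 and 1.12. Cd74 had a UMI in 6.92% of thinned cells, 3 or more in 0.16%, and up to 31 UMIs in 1 cell, so its ratio rested on few cells. Lars2, the mitochondrial leucyl-tRNA synthetase, had a UMI in 94.1% of cells and up to 172 UMIs in 1 thinned cell. Gm20594, an uncharacterised gene, shares up to 65 identical bases with the mitochondrial ribosomal RNA mt-Rnr2, which has no row in the matrix, so its reads are uncertain.

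Other genes with high ratios differed among the cells annotated as naive CD8, and whether some of these were memory cells was not tested. Ly6c2 had a ratio of 3.04, with a UMI in 23.2% of thinned cells and 3 or more in 7.72%. Igfbp4, a secreted binding protein of insulin-like growth factors that is high in naive T cells, had a ratio of 1.83 and a UMI in 32.6% of cells. Dapl1 reached 1.74, whereas Cd8a was at 1.26 and Ccr7 at 1.16. Cd8a and Ccr7 had means of 1.13 and 0.731 UMIs per thinned cell. Tmsb10 and Actb, abundant genes of the actin system, had ratios of 1.89 and 1.81 at means of 23.3 and 13.6 UMIs. At the same relative spread, a gene with a higher mean has a higher ratio. Ratios at unlike means therefore do not rank genes by relative spread. Cd44, the classical marker of memory, had a UMI in 0.905% of the thinned cells, and Cxcr3 in 1.28%, whereas Nkg7 had one in 65.0%, Ctsw in 38.9% and Klrd1 in 22.9%.

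Of the 12 genes with the highest ratio, 4 are induced by interferon. Ifi27l2a, a small mitochondrial protein, had a ratio of 2.29, and Ly6a (Sca-1) one of 1.83. Ifit1 and Ifit3, which encode tetratricopeptide proteins of the antiviral response, had 2.10 and 1.89. Many promoters that respond to type I interferon hold a sequence called the interferon-stimulated response element. Ifit1 and Ifit3 both lie on chromosome 19, and the promoter of each holds 2 copies of the core of that element. Ifi27l2a and Ly6a had no entry among the promoters used, so theirs were not searched. The sequences are RefSeq's, 250 bases before to 50 bases after the start site on the plus strand of GRCm38.p6, Ifit1 at chr19:34640639-34640938 and Ifit3 at chr19:34583279-34583578. Capitals mark matches to the core searched, GAAA, any 2 bases and GAAA again, looked for on both strands, and all 4 matches lay on the minus strand, so they read as its reverse complement.
Ifit1: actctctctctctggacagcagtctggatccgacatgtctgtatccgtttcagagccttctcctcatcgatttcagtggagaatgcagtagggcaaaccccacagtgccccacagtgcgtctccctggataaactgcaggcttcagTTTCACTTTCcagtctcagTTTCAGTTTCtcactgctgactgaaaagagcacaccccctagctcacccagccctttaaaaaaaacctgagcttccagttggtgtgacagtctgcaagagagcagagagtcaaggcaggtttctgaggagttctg
Ifit3: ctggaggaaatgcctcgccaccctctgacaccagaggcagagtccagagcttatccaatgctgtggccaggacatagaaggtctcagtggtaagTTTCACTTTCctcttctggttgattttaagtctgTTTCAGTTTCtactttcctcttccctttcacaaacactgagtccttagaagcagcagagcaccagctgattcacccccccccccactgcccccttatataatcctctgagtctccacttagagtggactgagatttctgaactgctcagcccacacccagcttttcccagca
The first match starts 104 bases before the start site in Ifit1 and 156 bases before it in Ifit3. This core stood in 3.44% of 32851 RefSeq promoters of that length and in 23 of the 41 promoters that matched the interferon list of 44 genes. A match is a description of these letters and not evidence of binding.

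The pair was also detected in the same cells. After thinning, 130 cells had an Ifit1 UMI, and 35.4% of them had an Ifit3 UMI, against 3.55% of cells without Ifit1; the share was higher with Ifit1 in 7 of 7 mice. Likewise 81.5% of the 108 cells with Ifit3 had Ifi27l2a, against 51.8% of those without it, again in 7 of 7 mice. With Dapl1, which is no interferon gene, the shares were 36.1% with Ifit3 and 34.2% without it. Across the 1878 thinned cells, which share 6 wells and 1 depth, Spearman's rho of Ifit1 with Ifit3 was 0.36. Cells with both made up 4.20%, 0.398%, 3.94% and 2.71% of the class in Aire-DTR mice 8, 36, 4 and 7, against 1.33%, 2.90% and 0.904% in WT mice 6, 97 and 1. The highest and the lowest share both belonged to Aire-DTR mice, so the genotypes overlapped. Ifit3 shares up to 329 identical bases with its copy Ifit3b, so its counts may hold some of the copy's.

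**Figure D2:**
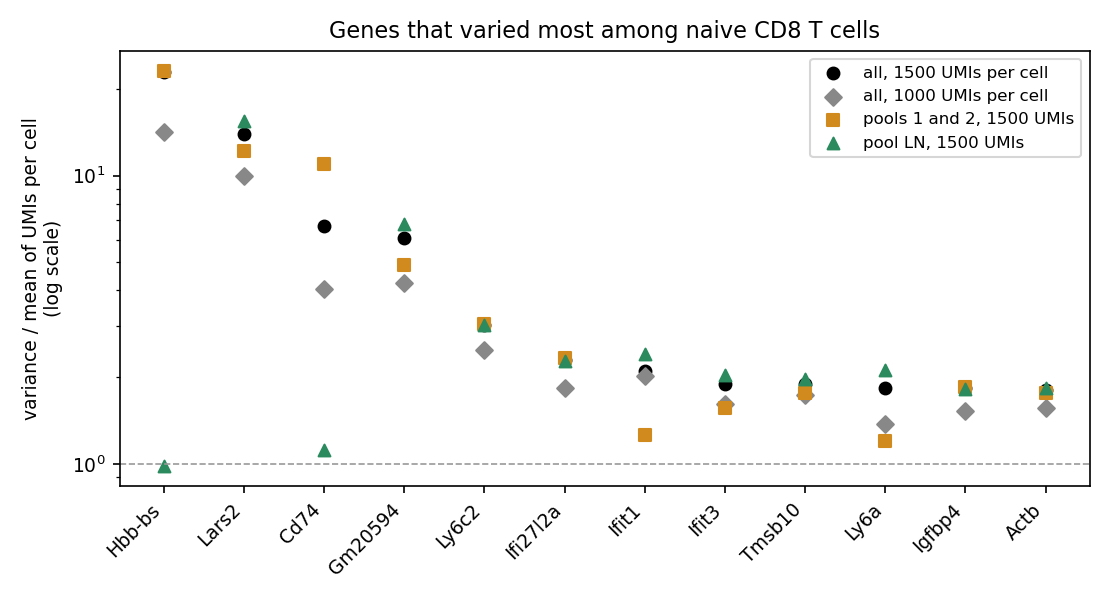
Ratio of variance to mean of UMIs per cell (log axis) for the 12 genes with the highest ratio among naive CD8 T cells, for all cells at 1500 and 1000 UMIs and for pools 1 and 2 and pool LN at 1500 UMIs. The dashed line marks 1, the ratio under sampling alone. Hbb-bs and Cd74 fall to about that line in pool LN, while Ly6c2 and Ifi27l2a do not.

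The first comparison asked whether toxin treatment of Aire-DTR mice went with a change in the number of naive CD8 T cells relative to other cells. In brLN the class made up 27.9%, 19.96%, 29.7% and 24.0% of all cells in Aire-DTR mice 8, 36, 4 and 7, against 20.9%, 30.3% and 33.0% in WT mice 6, 97 and 1. The 2 genotypes overlapped, with means of 25.4% ± 4.35 in Aire-DTR (SD, n = 4) and 28.1% ± 6.37 in WT mice (SD, n = 3). The log2 difference was -0.23 (SE 0.18, adjusted p = 0.380 over 9 classes, edgeR on numbers of cells per class, with a pool term), and an exact two-sided permutation test over the mice gave p = 0.457. In udLN the shares were 21.4%, 17.0%, 29.5% and 35.6% in Aire-DTR mice 8, 36, 4 and 7, against 15.1%, 29.2% and 24.1% in WT mice 6, 97 and 1. They also overlapped, and the log2 difference was 0.25 (SE 0.24, adjusted p = 0.8001, edgeR); the exact permutation p was 0.686. The pools did not point one way in either node: Aire-DTR minus WT was 7.06, -10.3 and -6.18 percentage points in brLN of pools 1, 2 and LN, and 6.27, -12.2 and 8.51 points in udLN.

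Within CD8 T cells, the naive share was lower in brLN of Aire-DTR mice in each pool, but the test did not reach the threshold. It was 81.8%, 76.7%, 85.3% and 78.9% in Aire-DTR mice 8, 36, 4 and 7, and 84.1%, 89.3% and 88.2% in WT mice 6, 97 and 1. Aire-DTR mouse 4 lay within the WT range and the other 3 below it. The difference was -6.52 percentage points (80.7% ± 3.76 against 87.2% ± 2.72, exact permutation p = 0.114, adjusted p = 0.686 over the 6 share tests), and -2.31, -12.6 and -6.06 points within pools 1, 2 and LN. The 35 arrangements of 4 and 3 mice cannot give a p below 0.0571. In udLN the naive share was 86.1% ± 5.12 in Aire-DTR and 84.3% ± 2.84 in WT mice (SD, n = 4 and n = 3, exact permutation p = 0.629). The share of CD8 among naive T cells in brLN was 53.0% ± 7.94 in Aire-DTR mice, against 54.4% ± 8.57 in WT mice, and in udLN 52.5% ± 8.90 in Aire-DTR, against 56.3% ± 18.8 in WT mice (exact permutation p = 0.857 and p = 0.8).

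**Figure D3:**
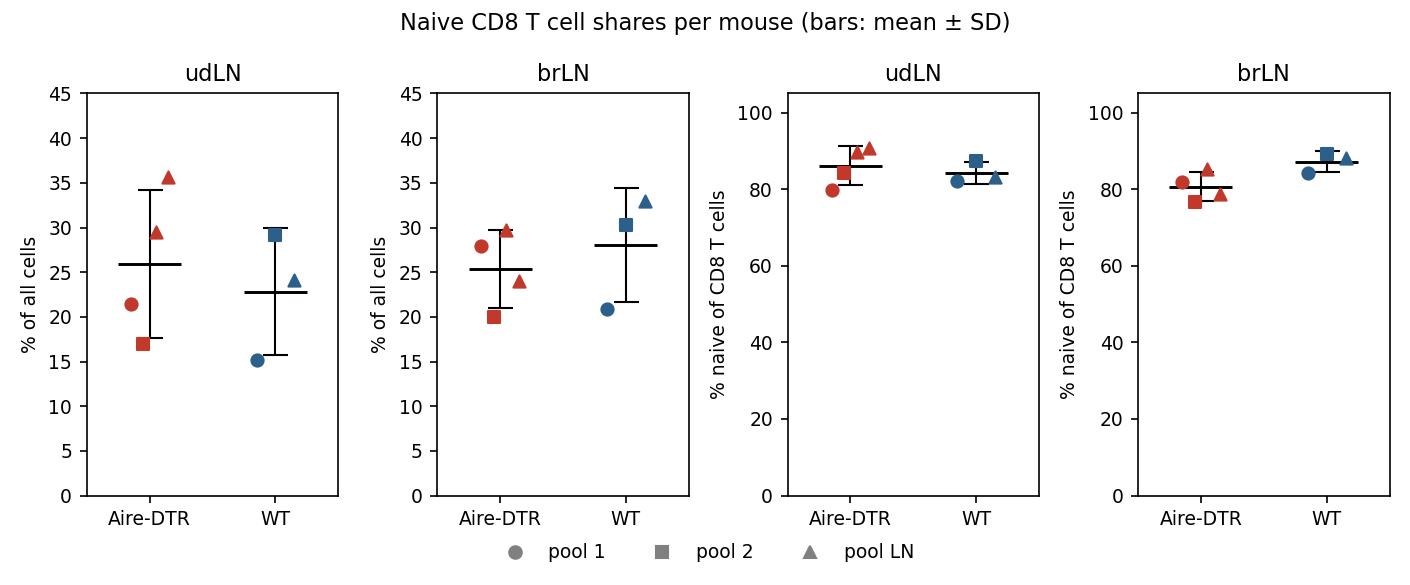
Share of naive CD8 T cells among all cells (left pair) and share of naive cells among CD8 T cells (right pair), per mouse, in udLN and brLN of Aire-DTR and WT mice; marker shape gives the pool and bars give the mean ± SD of 4 Aire-DTR and 3 WT mice. The genotypes overlap in each panel; in brLN the naive share of CD8 T cells averages 80.7% in Aire-DTR and 87.2% in WT mice.

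Gene levels were then compared between genotypes in sums of UMIs per mouse, each node alone. In brLN, 1 of 7214 genes tested (0.0139%) passed, and it was the globin Hbb-bs (chromosome 7, 103826534 to 103828096, minus strand), which shares up to 430 identical bases with Hbb-bt, so its reads may be split between both. It stood at 648, 557, 2.58 and 2.20 CPM in Aire-DTR mice 8, 36, 4 and 7, against 1041, 783 and 4.79 CPM in WT mice 6, 97 and 1. Levels followed the pool far more than the genotype, and the groups overlapped; in pool LN these values were 2, 2 and 4 UMIs. Hbb-bs fell by 0.61 on the log2 scale in Aire-DTR brLN (SE 0.11, adjusted p = 0.00566, edgeR's quasi-likelihood test), lower in 3 of 3 pools. The other 4 genes of the red cell list did not pass, 3 lower and 1 higher. As given above, the share of cells with an Hbb-bs UMI was close in naive CD8 T cells and B cells of the same pool. The part that red cells played in this result was not tested. The call was lost without mouse 8, 36, 6 or 97 (adjusted p = 0.360, 0.227, 0.510 and 0.352, edgeR), by DESeq2 (adjusted p = 0.645) and without the pool term.

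No other gene passed in brLN by edgeR; 348 genes had an unadjusted p under 0.05, and DESeq2 called 0. The nearest was Rbm3, an RNA-binding protein induced by cold. It was at 724, 852, 793 and 652 CPM in Aire-DTR mice 8, 36, 4 and 7 and at 547, 644 and 559 CPM in WT mice 6, 97 and 1. Each Aire-DTR mouse was above each WT mouse, as was so for 2.8% of genes tested (2.54% were lower in each), and the log2 difference was 0.38 (SE 0.08, adjusted p = 0.0787, edgeR). Rbm3 passed in 4 of 19 alternatives. Among them were no filter on low counts (adjusted p = 0.0305, edgeR) and the fit without mouse 7 (adjusted p = 0.00273, edgeR). The others were an edgeR fit of both nodes together (adjusted p = 0.00701) and limma voom with the mouse as a random effect (adjusted p = 0.00936). That edgeR fit had no mouse term, so it treated the nodes of a mouse as independent. In limma voom the estimated mouse correlation was -0.05. Ddit4, an inhibitor of mTORC1 induced by stress and glucocorticoids, was at 165, 161, 107 and 217 CPM in Aire-DTR mice 8, 36, 4 and 7 and at 127, 277 and 248 CPM in WT mice 6, 97 and 1. These ranges overlapped, with a log2 difference of -0.54 (adjusted p = 0.397, edgeR). Ddit4 passed in 3 of 19 alternatives. These were no filter on low counts (adjusted p = 0.0183, edgeR) and the fits without mouse 8 or 7 (adjusted p = 0.0409 and 0.00273, edgeR).

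Identity genes of the class were close between genotypes in brLN. Cd8a was at 751 ± 43.1 CPM in Aire-DTR and 764 ± 35.1 CPM in WT mice (SD, n = 4 and n = 3), a log2 difference of -0.03 (SE 0.08). For Cd8b1, Ccr7, Dapl1, Lef1, Tcf7, Satb1, S1pr1 and Klf2 the log2 differences lay between -0.12 and 0.13, with SEs of 0.07 to 0.12. Igfbp4 was at 358, 325, 285 and 380 CPM in Aire-DTR mice 8, 36, 4 and 7, and at 625.5, 371 and 388 CPM in WT mice 6, 97 and 1, lower in 3 of 3 pools, with a log2 difference of -0.34 (SE 0.10, adjusted p = 0.711, edgeR). Il7r, the receptor through which interleukin-7 keeps naive T cells alive, had a log2 difference of 0.36 (SE 0.11, adjusted p = 0.721). The 14 tested naive surface genes, Igfbp4 and Dapl1 among them, had a median log2 difference of -0.14, 10 lower and 4 higher; for all genes the median was 0.0026.

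The other lists in brLN held no called gene, and are given by their counts. Of 12 tested genes of the virtual memory list, which marks CD8 T cells with memory traits formed without infection, 11 were higher in Aire-DTR mice (median log2 difference 0.20). The medians within pools 1, 2 and LN were 0.0039, 0.21 and 0.07. Ccl5 was at 6.89, 42.4, 7.73 and 19.8 CPM in Aire-DTR mice 8, 36, 4 and 7 and 0, 8.37 and 14.4 CPM in WT mice 6, 97 and 1. The Ccl5 ranges overlapped. Of 38 interferon genes, 27 were higher (median 0.09), but the median was 0.14 in pool 1, -0.15 in pool 2 and 0.22 in pool LN. Ifit3 was at 62.0, 35.3, 97.9 and 50.7 CPM in Aire-DTR mice 8, 36, 4 and 7 and 26.2, 39.8 and 26.3 CPM in WT mice 6, 97 and 1, a log2 difference of 0.82 (SE 0.25, adjusted p = 0.711, edgeR). It was lower in Aire-DTR in pool 2, and among the alternatives run it passed only without mouse 36 of that pool (adjusted p = 0.0361, edgeR).

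Heat shock genes were lower in 9 of 11 tested (median -0.19, and -0.17, -0.22 and -0.12 in pools 1, 2 and LN), with 5 at an unadjusted p under 0.05 and none past the threshold. Hspa1a, the inducible chaperone Hsp70, was counted 0, 0, 5 and 0 times in Aire-DTR mice 8, 36, 4 and 7, against 6, 13 and 4 times in WT mice 6, 97 and 1. In brLN the Aire-DTR sums other than that of mouse 4 held none, and counts there were low. In udLN Hspa1a was counted 0, 0, 22 and 6 times in Aire-DTR mice 8, 36, 4 and 7, against 1, 2 and 3 times in WT mice 6, 97 and 1. Hspe1, a mitochondrial chaperonin, was at 362, 479, 554 and 569 CPM in Aire-DTR mice 8, 36, 4 and 7 and at 660, 561 and 576 CPM in WT mice 6, 97 and 1, a log2 difference of -0.26 (SE 0.09). Of the 68 nuclear genes of oxidative phosphorylation, 46 were lower and 22 higher (median -0.05). T cell receptor activation, MHC class I, survival, glycolysis, Gimap and cell cycle genes had medians between -0.05 and 0.08.

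In udLN, 3 of 4799 genes tested (0.0625%) passed, 2 of them T cell receptor beta variable segments and the third Lars2 (chromosome 9, 123366927 to 123462666, plus strand). Lars2 was at 4865, 5821, 4562 and 4738 CPM in Aire-DTR mice 8, 36, 4 and 7, against 3935 and 3275 CPM in WT mice 6 and 1. All 4 Aire-DTR mice were above both WT mice, as was so for 7.69% of genes tested (8% were lower in each), and Lars2 rose by a log2 difference of 0.46 (SE 0.05, adjusted p = 2.3e-15, edgeR). The udLN of WT mouse 97, whose 14 cells kept it out, had the highest level of all at 9321 CPM. With that sum the log2 difference was 0.19 and the adjusted p 0.503, so the call rests on leaving it out; without mouse 1 the adjusted p was 0.0536 (edgeR). Lars2 was also among the genes with the highest ratio of variance to mean between single cells, as given above. Gm20594, which also had a high ratio, was at 966 to 1171 CPM in Aire-DTR and 1040 to 1397 CPM in WT udLN, mouse 97 included.

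Among the genes that did not pass in udLN, of which 244 had an unadjusted p under 0.05, Rbm3 again had one of the smallest p. It was at 888, 953, 757 and 696 CPM in Aire-DTR mice 8, 36, 4 and 7 and at 493 and 620 CPM in WT mice 6 and 1, with 667 CPM in the 14 cells of mouse 97. The log2 difference was 0.40 (SE 0.11, adjusted p = 0.167, edgeR). Rbm3 passed in 2 of 18 alternatives, with the sum of mouse 97 included (adjusted p = 0.0464, edgeR) and without mouse 1. The fit without mouse 1 left mouse 6 as the only WT mouse, with a log2 difference of 0.90. Both nodes come from the same mice, so the udLN result is no independent repeat. Tsc22d3, the glucocorticoid-induced leucine zipper, was at 295, 218, 232 and 251 CPM in Aire-DTR mice 8, 36, 4 and 7 and at 288 and 408 CPM in WT mice 6 and 1, a log2 difference of -0.58 (SE 0.16, adjusted p = 0.167, edgeR). It passed without mouse 6 (-0.75, adjusted p = 0.0102, edgeR), and without mouse 1 the difference was 0.08. Slc5a3, a transporter of myo-inositol, was counted 13, 4, 26 and 15 times in Aire-DTR mice 8, 36, 4 and 7, against 0 and 2 times in WT mice 6 and 1. It did not pass (adjusted p = 0.0755, edgeR), but it did with the rows as deposited (adjusted p = 0.00361, edgeR). Of 10 tested genes of the glucocorticoid list 9 were lower (median -0.20), with a median of -0.04 in pool 1 and -0.53 in pool LN, and of 0.08 without mouse 1. Of 34 interferon genes 19 were higher and 15 lower (median 0.02, although the medians within pools 1 and LN were -0.20 and -0.01). Of 10 heat shock genes 7 were lower (median -0.09), and of 7 virtual memory genes 4 were higher (median 0.03). Cd8a, Cd8b1, Ccr7, Satb1 and Klf2 had log2 differences of -0.03 to 0.05 in udLN, and Dapl1, Tcf7, S1pr1 and Lef1 of 0.21, 0.20, 0.26 and -0.14 (SEs of 0.12 to 0.18), none of which passed.

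**Figure D4:**
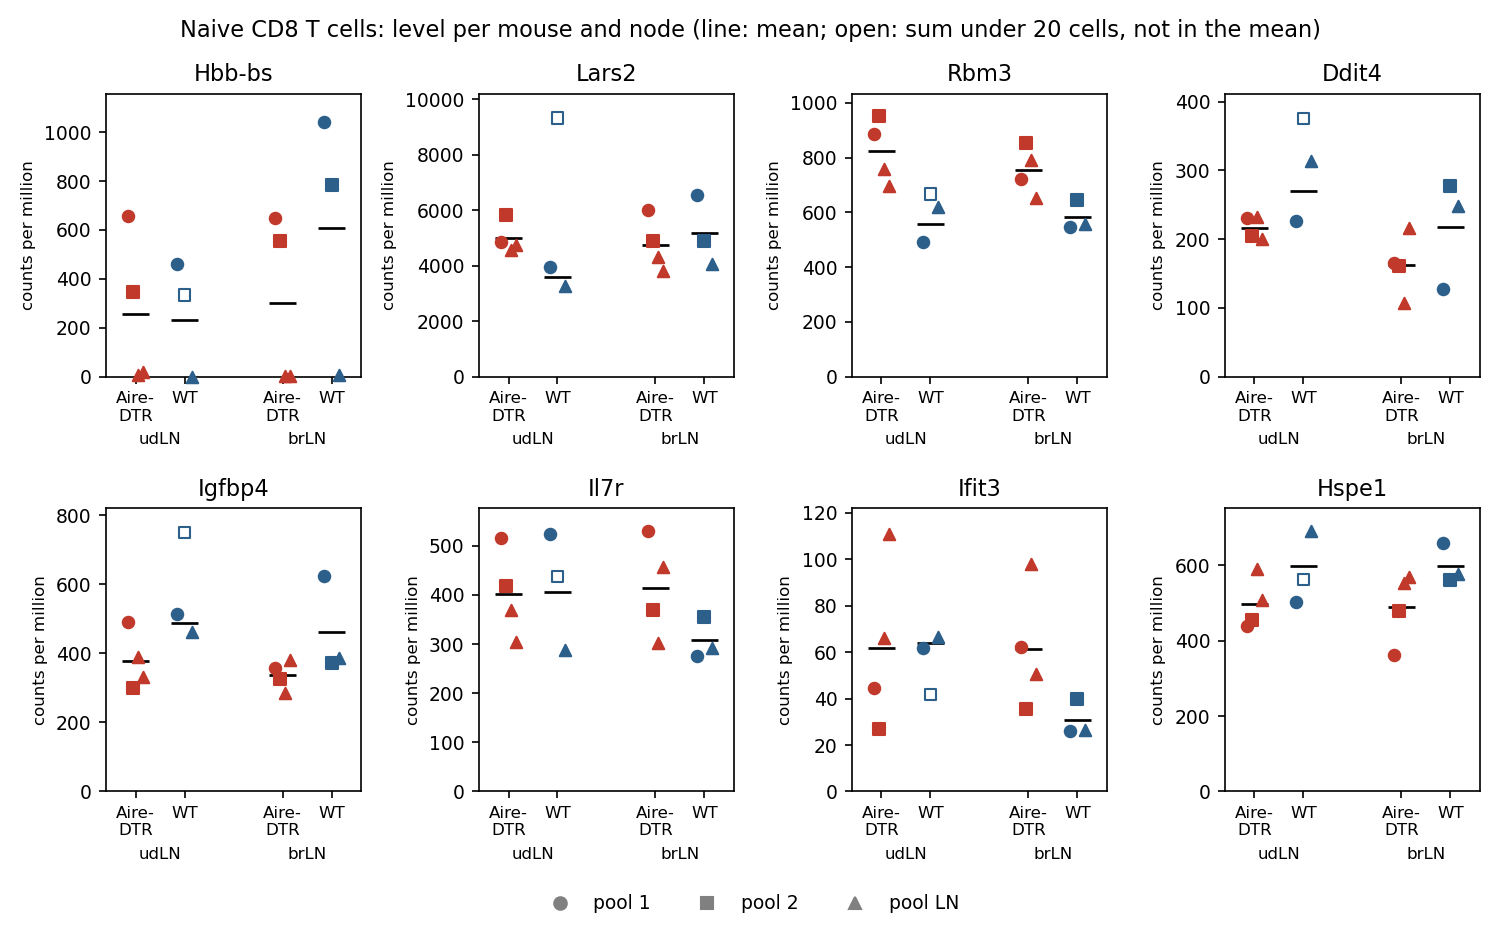
Level of 8 genes in naive CD8 T cells, in CPM per mouse, in udLN (left of each panel) and brLN (right) of Aire-DTR and WT mice; shape gives the pool, the line the mean, and the open square the 14 cells of mouse 97 udLN, which the mean leaves out. Hbb-bs follows the pool; Lars2 in mouse 97 udLN, at 9321 CPM, stands above every other sum; Rbm3 is higher in each Aire-DTR than in each WT mouse in brLN.

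The nodes of the same mouse were compared next. In the 6 mice with at least 20 cells in both, 6 of 5169 genes tested (0.116%) passed, 5 higher and 1 lower in udLN, of which 1 in each direction was a T cell receptor variable segment; 265 genes had an unadjusted p under 0.05, and DESeq2 called 0. The other 4 were Dtx1, Acp5, Klf2 and Ddit4, all higher in udLN, the node that drains the pregnant uterus.

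Dtx1 (chromosome 5, 120680202 to 120711927), an E3 ubiquitin ligase that is a target and regulator of Notch signalling, was at 112 ± 22.7 CPM in udLN and 66.0 ± 17.3 CPM in brLN (SD, n = 6 mice). It was higher in udLN in 5 of 6 mice, by a log2 difference of 0.91 (SE 0.15, adjusted p = 3.68e-05, edgeR with the mouse as a block). WT mouse 6, whose udLN sum had 23 cells, was the exception at 71.9 CPM in udLN and 101 CPM in brLN. Acp5 (chromosome 9, 22126727 to 22135711) was at 412, 432, 407, 438, 390 and 423 CPM in udLN of mice 8, 36, 4, 7, 6 and 1, and at 376, 341, 294, 287, 293 and 298 CPM in brLN of the same mice. The nodes did not overlap, and the log2 difference was 0.44 (SE 0.08, adjusted p = 0.000174, edgeR).

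Klf2 (chromosome 8, 72319033 to 72321656), the transcription factor that maintains quiescence and drives S1pr1, was at 1191, 1105, 945, 989, 1048 and 1010 CPM in udLN of mice 8, 36, 4, 7, 6 and 1, against 848, 945, 827, 884, 844 and 750 CPM in brLN. It was higher in udLN in 6 of 6 mice, by 0.29 on the log2 scale (SE 0.05, adjusted p = 0.000848, edgeR), and lost the call in cells with at least 1000 UMIs and no Cd4, Cd79a or Hbb-bs UMI (0.26, adjusted p = 0.397) and without mouse 8 (0.24, adjusted p = 0.0730, edgeR). Its target S1pr1 had a log2 difference of 0.09 (SE 0.10) and did not pass. Ddit4 was at 235 ± 41.3 CPM in udLN and 171 ± 53.3 CPM in brLN (SD, n = 6), higher in 5 of 6 mice, by 0.46 (SE 0.11, adjusted p = 0.0416, edgeR). Its call was lost without mouse 8, 4 or 6 (adjusted p = 0.123, 0.720 and 0.181), with the rows as deposited (0.41, adjusted p = 0.313), in the stricter cells (adjusted p = 0.286) and without the mouse block (adjusted p = 0.138, edgeR).

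Lef1, which with Tcf7 sustains the naive state, was at 574 ± 106 CPM in udLN and 468 ± 32.6 CPM in brLN (SD, n = 6), higher in 5 of 6 mice (log2 difference 0.26, SE 0.07, adjusted p = 0.128, edgeR), and passed without mouse 36 (adjusted p = 0.00436). The markers Cd8a, Cd8b1, Ccr7 and Dapl1 had log2 differences of -0.01, 0.13, 0.09 and 0.03 and did not pass.

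By list, 8 of 8 Gimap genes, GTPases tied to the survival of resting lymphocytes, were higher in udLN (median 0.18, no call), as were 13 of 17 naive transcription factors (median 0.10, with the call of Klf2), 10 of 14 homing genes (median 0.09, no call) and 9 of 11 immediate early genes (median 0.14, no call), among them Junb (0.30) and Jun (0.43). Of 35 interferon genes 25 were lower in udLN (median -0.07, no call), although the median of this list was above 0 in 4 of 6 mice. Mouse by mouse, the list median was above 0 in 6 of 6 mice for Gimap genes and naive transcription factors. It was above 0 in 5 of 6 mice for homing genes and in 4 of 6 for immediate early genes. The median over all genes was 0.0017. Of the genes tested, 4.35% were higher in udLN in every mouse and 0.696% lower in every mouse.

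**Figure D5:**
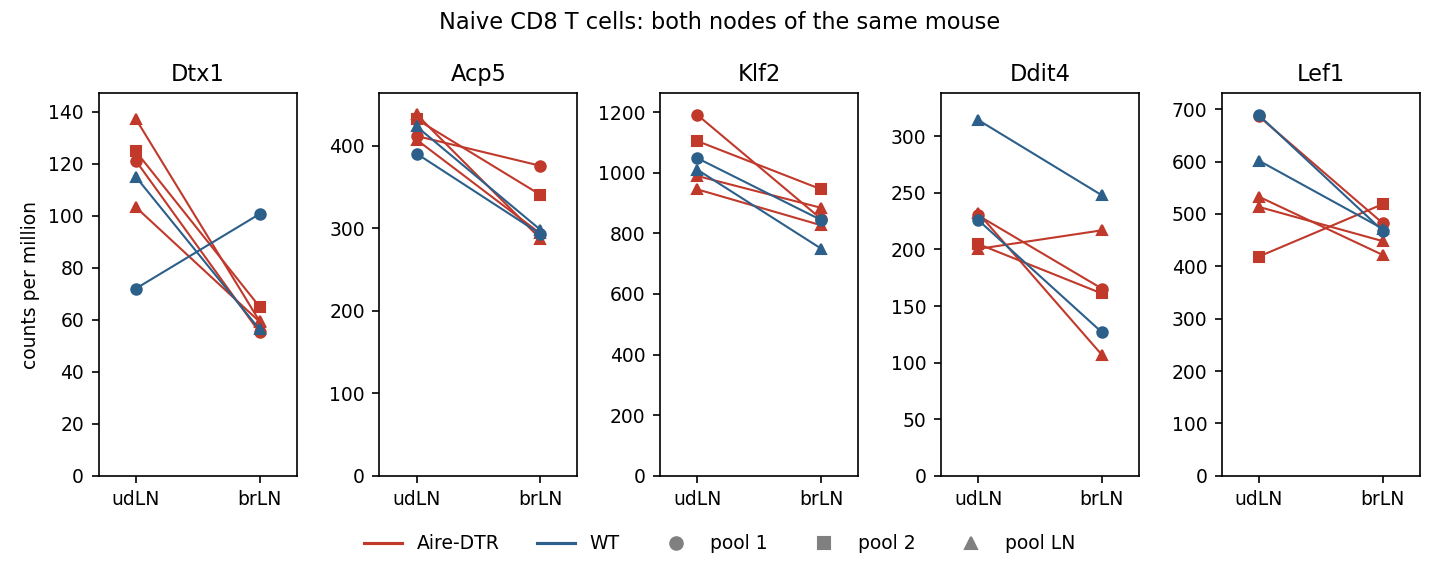
Level of 5 genes in naive CD8 T cells, in CPM, in udLN and brLN of the same mouse, joined by a line, for 4 Aire-DTR and 2 WT mice; shape gives the pool. Acp5 and Klf2 are higher in udLN in 6 of 6 mice, Dtx1 and Ddit4 in 5 of 6; Lef1 did not pass the test.

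Whether the genotype difference itself differed between nodes was tested by an interaction in the same 6 mice. Of 5169 genes, 2 passed (0.0387%), Lars2 and 1 T cell receptor variable segment. The Aire-DTR minus WT difference of Lars2 was larger in udLN than in brLN by 0.60 on the log2 scale (SE 0.10, adjusted p = 0.00123, edgeR). In brLN Lars2 was at 6007, 4890, 4305 and 3804 CPM in Aire-DTR mice 8, 36, 4 and 7 and at 6556, 4888 and 4056 CPM in WT mice 6, 97 and 1, so the genotypes overlapped there. With the 14 cells of mouse 97 udLN the interaction was 0.20 (adjusted p = 1.00, edgeR). The call was also lost without mouse 36 or 4 (adjusted p = 0.0711 and 0.0607, edgeR) and by DESeq2 (adjusted p = 0.999). It was lost too without mouse 6 (0.41) and in the stricter cells (0.62), both of which leave mouse 1 as the only WT mouse. Segments set aside, Vps72, Ring1, Rabggtb and Ifi27l2a had the next smallest p and did not pass (Ifi27l2a -0.58, SE 0.16, adjusted p = 0.447, edgeR). Ifi27l2a passed without mouse 6 (adjusted p = 0.0380, edgeR). Of the interferon list, 28 of 35 genes tested had a negative interaction (median -0.31, none past the threshold; median over all genes 0.0069).

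The last comparison asked whether the genotype difference in brLN differed between naive CD8 and naive CD4 T cells of the same mice. None of 7303 genes passed (0%) by edgeR's quasi-likelihood test, with 327 at an unadjusted p under 0.05, and none by DESeq2, with 35. Antigen receptor segments set aside, the smallest p belonged to Rnps1, a factor of the exon junction, and Zfp277 (log2 differences of 0.85 and -1.44, adjusted p = 0.162 for both, edgeR), followed by Ifit1 (1.11, SE 0.30, adjusted p = 0.341, edgeR). Of 41 interferon genes 29 had a larger difference in naive CD8 T cells (median 0.10), and 5 of 5 red cell genes had a median of 0.09 with none past the threshold. An effect seen in naive CD8 T cells was therefore not shown to be particular to them.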

How the data were processed

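The authors deposited UMI counts as a matrix of 9427 cells by 14125 genes holding 29210327 UMIs, and a table of each cell's well, mouse, node, genotype and cell type. The tools named per the submitters' processing notes are bustools 0.40.0, kallisto 0.46.1, Seurat and Scanpy 1.7.0, with build GRCm38. For hashtag assignment, cell filters, doublet removal and cell type names, the method is not given in the sources used here. No doublet caller was run here. The sort is CD45+ CD3+ in the labels and CD45+ in the design text, and 2267 of the cells kept were B cells. Uterine cells of pools 1 and 2, and scaled values of other tables, were not analysed here.

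Rows that repeated a cell of pool LN well 1 were dropped, which leaves 22833288 UMIs in all and 6726247 in the class. Counts were summed per mouse and node and tested with edgeR 4.0.16 (R 4.3.3; filterByExpr, TMM, quasi-likelihood test, Benjamini-Hochberg over all genes, threshold 0.05), with pool as a term between genotypes and the mouse as a block between nodes and in the interactions. Each SE was computed from the log2 difference and its F statistic, so it carries edgeR's moderated spread, which may understate that between the mice. CPM are counts per 1000000 UMIs of the class, and a mean ± SD is over mice. Alternatives used DESeq2 1.42.0, limma 3.58.1, other filters, cells and blocks, and each mouse left out. Shares were also tested by exact permutation of the mice, which ignores pools. Scripts were tested on simulated data. Coordinates are from GENCODE M21, matched by symbol.

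The class, the 27 gene lists and the tests were chosen with earlier results of these data known. Always described were the 4 markers and 22 genes of naive identity, memory and interferon. Of them Isg15 has no row in the matrix. Beside them stand, per genotype comparison, genes past the threshold with 1 sign in every pool, the 10 smallest p where fewer pass, and the smallest p of each list; between nodes, past genes with a log2 CPM above 5; in the interactions, the 5 smallest p. Not all of these are printed, and some genes are not reported here. Segments of T cell receptor genes are given by number alone. Values of Ifit1 and Gm20594 by mouse, the shared transcript stretches and the globin shares and levels by pool were added after the data were seen. So were 2 alternatives, rows as deposited and cells whose barcode occurs in 1 well only. With 14 to 267 cells per sum, precision was limited by cells and mice. Between genotypes, edgeR's gene p-values rest on a spread within pools that is moderated over genes. Behind it stand 3 residual degrees of freedom in brLN and 2 in udLN, and only mice 4 and 7 share a pool and a genotype. Between nodes, the gene p-values rest on the spread of node differences among mice, moderated in the same way.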

Additional observations from a re-analysis of the deposited data

Results flagged for a closer look

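In 108 groups of 4 Aire-DTR mice examined for a mouse that stood far from the other 3, 5 did, where chance gives about 1 in 20. In brLN, mouse 4 had 6.44 CPM of Hspa1a, from 5 UMIs. The others had 0, so any count in mouse 4 would have been flagged. Mouse 7 had 41.8 CPM of the glycolysis gene Pfkl, from 38 UMIs (others 47.6 to 48.3 CPM, from 14 to 37 UMIs). Whether that gap exceeds counting noise was not tested. Mouse 8 had 93.1 CPM of the cytotoxic gene Prf1 (others 44.0 to 51.5 CPM). In udLN, mouse 36 had 98.0 CPM of the lysosomal mannosidase Man2b1 (others 47.5 to 55.9 CPM) and mouse 8 had 149 CPM of Cd74 (others 27.2 to 47.5 CPM).

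The genotype difference of Lars2 differed between nodes, by 0.60 on the log2 scale (adjusted p = 0.00123, edgeR's interaction test), a result that the report gives with and without the 14 cells of WT mouse 97 udLN.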

How the results depend on the processing

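Depth and mice set the limits: 3 WT mice, 1 per pool, and sums as small as 23 cells in udLN. Counts of called genes moved with most settings. The stricter cell filter drops cells with an Hbb-bs UMI, 84.4% of the class in pool 1 and 74.5% in pool 2. Genotype calls in brLN, 1 in the reported fit, were 0 by DESeq2 and without the pool term, 6 with no filter on low counts, 2 with both nodes in 1 fit and by limma voom, 3 with the stricter cell filter, and 1 to 4 with a mouse left out (3 without mouse 8 or 36, 4 without mouse 7). In udLN, 3 became 1 by DESeq2, at 10 UMIs or more on average, without the pool term and by limma voom, and 1 to 6 with a mouse left out (1 without mouse 8 or 36, 5 without mouse 1, 6 without mouse 6). Between nodes, 6 became 0 by DESeq2, 10 with no filter, 12 with sums of at least 10 cells, and 6 to 11 with a mouse left out (11 without mouse 36 or 1). For the interaction, 2 became 0 by DESeq2, 1 with sums of at least 10 cells and with barcodes of 1 well only, and 0 to 4 with a mouse left out (0 without mouse 36, 1 without mouse 4, 4 without mouse 6). For naive CD8 minus naive CD4 T cells, 0 became 4 with no filter, 1 with the rows as deposited and with barcodes of 1 well only, and 0 to 3 with a mouse left out (1 without mouse 8, 4 or 97, 2 without mouse 7, 3 without mouse 6), all of them antigen receptor segments.

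With a mouse left out, the log2 difference of the naive CD8 share ran from -0.43 to -0.06 in brLN and from -0.035 to 0.42 in udLN, where it turned without mouse 1. The CD8 share of naive T cells ran from -5.70 to 2.86 percentage points in brLN, turning without mouse 36, 7 or 97, and from -10.6 to 6.97 points in udLN, turning without mouse 36 or 97. The naive share of CD8 T cells in brLN ran from -8.07 to -5.18 points (exact permutation p = 0.100 to 0.267). Among cells with at least 1000 UMIs it was -7.00 points (exact permutation p = 0.0571, the smallest that 35 arrangements give).

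Between genotypes, no paired analysis was possible because each mouse has 1 genotype and the labels' replicate numbers are those of the 2 wells of a pool, over which each mouse's cells are spread. Nodes were paired by mouse, and without that block 5 node genes passed in place of 6.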
